A study of Homo sapiens with 4 samples.

Results

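CDH1, CDH2, EPCAM, ESRP1, ESRP2, VIM, SNAI1, SNAI2, ZEB1 and TWIST1 are 10 genes that mark or set the epithelial and mesenchymal states of a carcinoma cell. They were taken by name, with every array probe that RefSeq assigns to them. The 10 genes had 13 probes, among 19740 named genes and 34127 probes on the array.

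Epithelial cells hold together through E-cadherin, the product of CDH1, and through EPCAM, while mesenchymal cells carry N-cadherin, the product of CDH2, and the intermediate filament vimentin, the product of VIM. Snail (SNAI1), Slug (SNAI2), ZEB1 and TWIST1 are transcription factors of the epithelial-mesenchymal transition, and Snail, Slug and ZEB1 bind E-box letters in the promoters of epithelial genes. ESRP1 and ESRP2 are RNA-binding proteins that keep transcripts in their epithelial splice forms. MET is the receptor of hepatocyte growth factor, also called scatter factor because it makes epithelial sheets come apart and cells move.

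Total RNA was profiled from Hs746T, an established gastric carcinoma line in which MET carries an exon-skipping mutation and is amplified, so that all 4 groups share the altered receptor. The groups were cells given DMSO, the vehicle, cells given PHA665752, an inhibitor of the MET kinase, cells transfected with sc siRNA, the scrambled control, and cells transfected with MET siRNA, with 1 single-colour array each. The labels give no dose, time, passage or culture for these arrays. Each value therefore stands for 1 labelled RNA without replicate error, and no test between conditions could be made. Precision is limited by the number of arrays.

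The signal is the background-subtracted brightness of a probe in the scanner's linear units, and a ratio is the log2 difference of 2 signals after each was divided by the 75th percentile of its array. A difference past 2-fold was used as a size, not as a test. Repeated spots of 1 probe on an array gave a yardstick for spot noise, which covers the array surface but not differences between cultures. This noise was taken as the median over probes of like signal, for a log2 ratio between single spots. The median was 0.15 to 0.16 at the signals of CDH1, ESRP1, ESRP2 and TWIST1, and 0.06 to 0.08 at those of the other members. The CDH1 spots themselves varied more. Their SD of the log2 difference was 0.19 for PHA665752 over DMSO and 0.39 for MET siRNA over sc siRNA. It was 0.33 for sc siRNA over DMSO.

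On every array the MET probe was bright. Its signal was 221451 with DMSO and 100492 with PHA665752, a 1.90-fold lower level. For the transfected cells it was 190010 with the scrambled siRNA and 77853 with MET siRNA, a 2.52-fold lower level. Probes well above background made up 67.4% of each array of the compound pair, 68.2% with sc siRNA and 61.1% with MET siRNA, and the MET siRNA array also had the most spots marked as outliers, 5.58% against 1.69% to 2.21% on the others.

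Markers of several cell classes were read to check the label of the line. Of 6 epithelial markers, EPCAM, KRT7, KRT8, KRT18 and KRT19 were well above background on every array and CDH1 on 3 arrays. Of 9 gastric markers with a named probe, MUC6, TFF1 and TFF2 were well above background on every array, PGC on 3 and CLDN18 on 1, while GKN1, CDX2, CDH17 and VIL1 were on none. Of 7 fibroblast markers, COL1A1, COL1A2, DCN and PDGFRB were well above background on every array and COL3A1, LUM and PDGFRA on none. Of the haematopoietic markers CD14 and 1 probe of PTPRC were well above background on every array and CD3E was on none, and of the endothelial markers PECAM1, VWF and CDH5 were and KDR was on none.

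All 10 members were well above background with DMSO and with PHA665752, on 12 of 13 probes. With sc siRNA 9 were, because the only VIM spot carried a mark, and with MET siRNA 8 were, because CDH1 was not well above background there either. The cells thus carried signal for epithelial and mesenchymal members at once, EPCAM and the ESRP genes beside CDH2, VIM, ZEB1 and SNAI2. Levels of different probes cannot be ranked against each other on this platform, so each gene is followed below across arrays only.

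**Figure D1:**
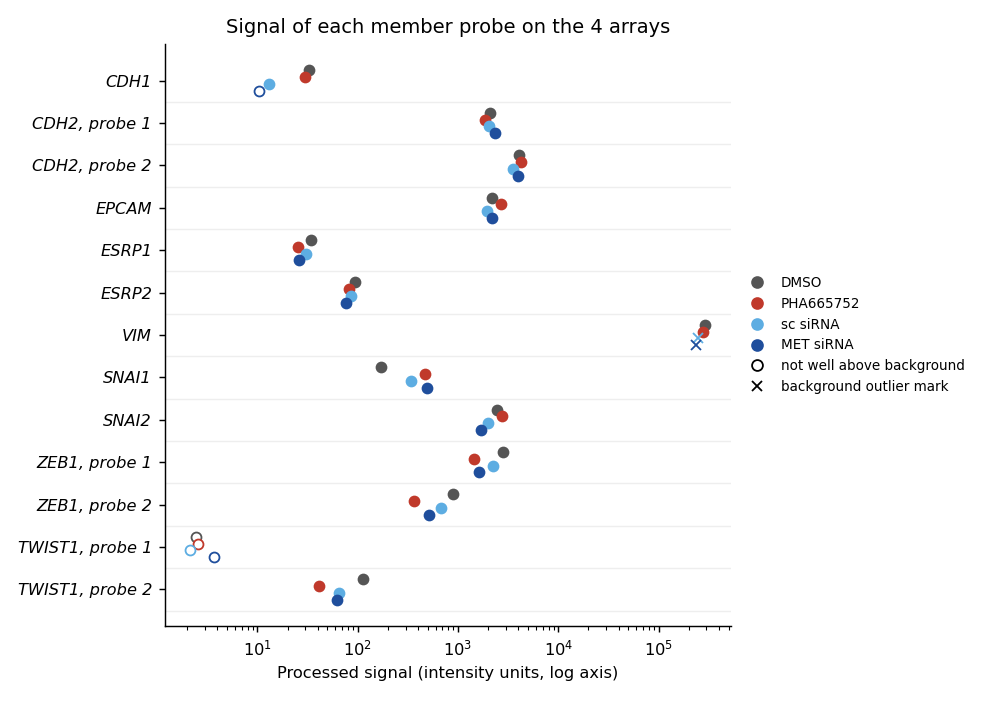
Processed signal (log axis) of the 13 member probes, 1 point for each of the 4 arrays, with open circles for probes not well above background and crosses for spots with a background outlier mark. The SNAI1 point with DMSO lies left of the other 3, both ZEB1 probes lie lower with PHA665752 and MET siRNA than with their controls, and probe 1 of TWIST1 stays below 4 on every array.

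CDH1 encodes the cadherin of adherens junctions. Its probe, spotted 10 times, gave a signal of 33.0 with DMSO and 30.2 with PHA665752, then 13.1 after sc siRNA and 10.4 after MET siRNA. The DMSO and PHA665752 arrays were alike and the siRNA arrays both lay under them, with 7 of 10 usable spots well above background with sc siRNA and 0 of 9 with MET siRNA.

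The CDH1 log2 ratio of PHA665752 over DMSO was 0.08, from means of 9 and 8 spots. The SD of the difference between single spots was 0.19, and the spot ranges of these arrays overlapped. This ratio turned negative with the 50th percentile (-0.16), quantile normalization (-0.26) and scaling to the median of the detected probes (-0.01). No ratio of MET siRNA over sc siRNA is given for CDH1. Its signal with sc siRNA (13.1) lay under the lowest one well above background with MET siRNA (17.4), so no bound could be set. The widest CDH1 difference lay between the control arrays, where sc siRNA was 2.12-fold lower than DMSO. Single spots ranged from 8.85 to 17.0 with sc siRNA and from 29.7 to 36.5 with DMSO and did not overlap. The SD of the log2 difference between single spots was 0.33. The log2 ratio of -1.08 was -0.13 with normexp background correction and -0.90 with the values of the series matrix, and was then no longer past 2-fold. In RNA from a whole culture, fewer cells that make a transcript and less of it per cell cannot be told apart.

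EPCAM, the epithelial adhesion molecule used to recognise carcinoma cells, gave 2161 with DMSO and 2709 with PHA665752, against 1958 after sc siRNA and 2184 after MET siRNA. It was highest with PHA665752, with a log2 ratio of 0.54 that ranged from 0.29 to 0.62 over 9 alternatives. MET siRNA over sc siRNA gave 0.11, the same as the 0.11 of the controls, and -0.19 with scaling to the detected probes.

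The splicing regulators ESRP1 and ESRP2 were dim on every array. ESRP1 gave 34.3 (DMSO), 25.7 (PHA665752), 30.5 (sc siRNA) and 26.3 (MET siRNA), with log2 ratios of -0.20 and -0.26 for the MET inhibitor and the knockdown and 0.08 for the controls. ESRP2, spotted 10 times, gave 93.7, 81.4, 85.4 and 76.9 in the same order, with log2 ratios of 0.01, -0.20 and 0.12. ESRP1 was lower with both treatments and ESRP2 with MET siRNA, by at most 1.20-fold. Under normexp correction the ESRP1 ratio was 0.01 for the inhibitor and -0.004 for the knockdown, so neither decrease held there. The ESRP2 ratio for the knockdown shrank to -0.07 under that correction. After scaling, the ESRP2 spots of MET siRNA and sc siRNA did not overlap, a difference of -0.20 ± 0.10 (SD of single spots on 1 array each, n = 9 and 10 spots).

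**Figure D2:**
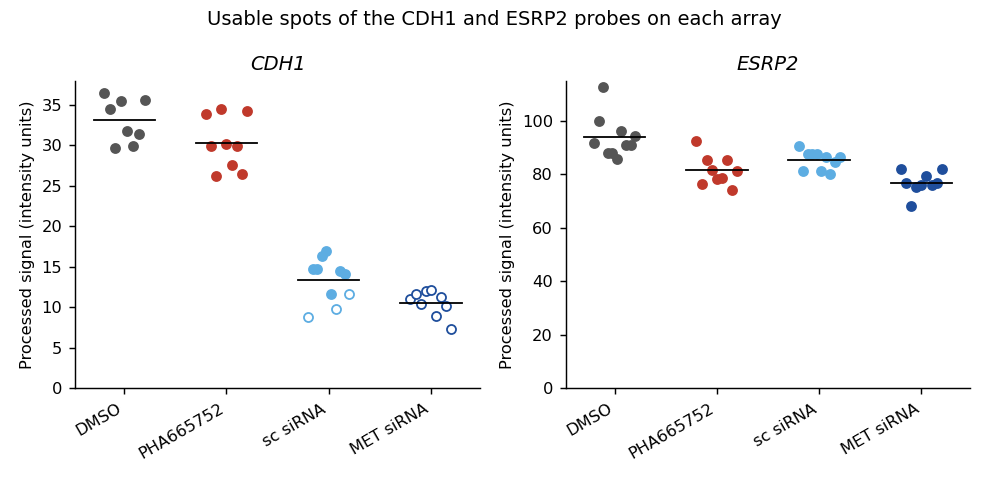
Processed signal of each usable spot of the CDH1 probe (left) and the ESRP2 probe (right) on the 4 arrays, with the mean of the spots as a black line and open circles for spots not well above background. The CDH1 spots with DMSO (29.7 to 36.5) and PHA665752 (26.3 to 34.5) lie above all spots with sc siRNA and MET siRNA, while the ESRP2 spots of the arrays lie close together.

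On the mesenchymal side, CDH2 gave 4099 (DMSO), 4223 (PHA665752), 3552 (sc siRNA) and 3942 (MET siRNA) on its brighter probe, and 2096, 1847, 2017 and 2329 on the other. The 6 log2 ratios of the 2 probes lay between 0.03 and 0.26. CDH2 was thus nearly level over the arrays on both probes, and the sign for MET siRNA turned with scaling to the detected probes (-0.20).

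VIM could be read on the DMSO and PHA665752 arrays only. It gave 291840 with DMSO and 276821 with PHA665752, and the log2 ratio was 0.14. Its single spot carried a mark for an outlying local background on both siRNA arrays, where the marked signals were 248274 (sc siRNA) and 237660 (MET siRNA). With those marks ignored the log2 ratio of MET siRNA over sc siRNA was -0.09, and no VIM ratio in any pair came near 2-fold.

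SNAI1, the founding member of the Snail family, was the member that was higher by the widest margin. Its signal was 170.3 with DMSO and 472 with PHA665752, then 344 after sc siRNA and 496 after MET siRNA. DMSO was low and the other 3 arrays, of cells transfected or given the inhibitor, were high. PHA665752 was 3.21-fold higher than DMSO (log2 ratio 1.68), a size that 4.56% of 14322 genes with a ratio reached or passed. MET siRNA was 1.40-fold higher than sc siRNA (0.48), a size that 7.44% of 13647 genes reached.

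The controls differed in SNAI1 as well, sc siRNA being 2.40-fold higher than DMSO (1.27), which 1.91% of 14274 genes reached. The level with sc siRNA lay nearer to those of both treatments than to the level with DMSO. SNAI1 stayed past 2-fold with PHA665752 and between the controls in all 9 alternatives (1.40 to 1.68 and 1.01 to 1.28), and for MET siRNA the ratio ranged from 0.18 to 0.50.

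SNAI2, the paralogue of SNAI1, moved little. It gave 2444 (DMSO), 2759.8 (PHA665752), 2015 (sc siRNA) and 1684 (MET siRNA). Its log2 ratio was 0.39 with the inhibitor and -0.31 with the knockdown, with the controls at -0.03. The inhibitor and the knockdown thus lay on opposite sides of their controls, in all 9 alternatives, and the difference between them was not tested.

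ZEB1, a zinc finger repressor of epithelial genes, was lower with both treatments on both of its probes. The brighter probe gave 2789.9 with DMSO and 1449 with PHA665752, and 2247 after sc siRNA and 1609 after MET siRNA. The other gave 897, 366, 679 and 515. Both treated arrays lay below both control arrays on each probe.

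Beside DMSO, ZEB1 was 1.66-fold lower with PHA665752 on the brighter probe (log2 ratio -0.73) and 2.11-fold lower on the other (-1.08), so the probes fall on different sides of 2-fold. Beside sc siRNA it was 1.44-fold lower (-0.53) and 1.36-fold lower (-0.45) with MET siRNA. The controls differed by -0.06 and -0.15. Of 13647 genes, 3.88% had a ratio with MET siRNA as low as the brighter ZEB1 probe, and 13.0% of 14322 genes had one as low with PHA665752. Over the 9 alternatives the brighter probe ranged from -0.98 to -0.63 with PHA665752 and from -0.83 to -0.49 with MET siRNA.

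TWIST1, a basic helix-loop-helix factor, could be read on 1 of 2 probes. This probe gave 113 (DMSO), 41.3 (PHA665752), 65.4 (sc siRNA) and 62.2 (MET siRNA). DMSO was the highest array, PHA665752 the lowest, and the siRNA arrays were alike. The second TWIST1 probe gave signals of 2.16 to 3.69 and was not well above background on any array, so the ratios rest on a single probe.

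TWIST1 was 2.36-fold lower with PHA665752 than with DMSO (log2 ratio -1.24), and 5.49% of 14322 genes were as low. With normexp correction this ratio was -0.58 and no longer past 2-fold, while in the other 8 alternatives it was past it, down to -1.51. The offset of 50 added in normexp by itself shrinks the ratio of a probe this dim. MET siRNA over sc siRNA gave -0.12, under the spot noise of 0.16, and sc siRNA over DMSO gave -0.54.

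**Figure D3:**
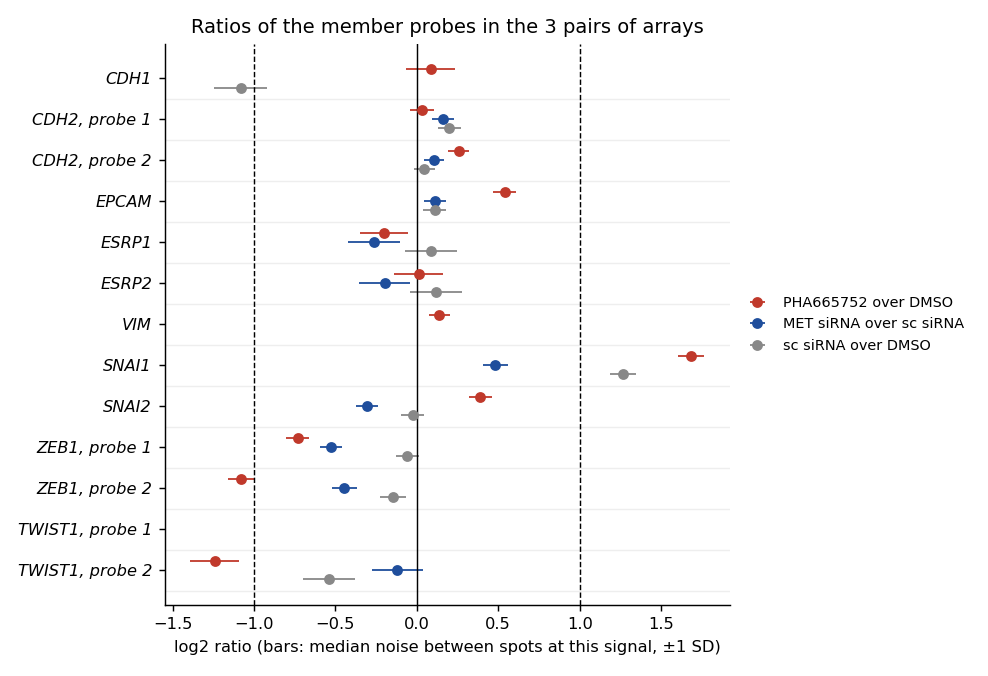
Log2 ratio of each member probe for PHA665752 over DMSO, MET siRNA over sc siRNA and sc siRNA over DMSO, with dashed lines at 2-fold. Bars give the median noise between single spots of probes at that signal, not the spread of the probe itself. SNAI1 lies right of the 2-fold line in 2 of the pairs, CDH1 left of it between the controls, and ZEB1 left of 0 for both treatments on both probes.

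Counted by the brightest probe of each gene, 9 members had a ratio of PHA665752 over DMSO. SNAI1 was past 2-fold higher and TWIST1 past 2-fold lower, against 13.1% and 8.04% of all genes. The median of the 9 was 0.08 and that of all genes 0.07. The share of members past 2-fold, 2 of 9, lies near the 21.1% of all genes. With MET siRNA over sc siRNA, 0 of 8 members were past 2-fold, where 2.73% of all genes were (2.04% higher and 0.696% lower), and their median was -0.16 against -0.02. Between sc siRNA and DMSO, 2 of 9 members were past 2-fold against 4.05% of all genes, SNAI1 higher (2.89% of all genes) and CDH1 lower (1.16%).

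Out of 13074 genes detected well above background throughout, those whose 4 levels followed SNAI1 most closely, by Euclidean distance on the log2 scale after centring, were NIPAL4 (0.13), BLZF1 (0.16) and UBQLNL (0.17). Like SNAI1, these were lowest with DMSO. For TWIST1 they were EFHD2 (0.07), TMEM19 (0.09) and VEPH1 (0.11), highest with DMSO and lowest with PHA665752. The likeness rests on 4 points per gene.

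The wider epithelial and mesenchymal programmes were followed through 9 lists of 140 genes other than the members. Their counts stand beside the shares of all genes past 2-fold. These shares were 13.1% higher and 8.04% lower with PHA665752, and 2.04% and 0.696% with MET siRNA. Whether a list differs from them was not tested. Among junction genes 19 of 23 with a probe had a ratio of PHA665752 over DMSO, of which 4 were past 2-fold higher, and their median was 0.48 (0.23 to 0.48 over the alternatives) against 0.07 for all genes. The 4 were periplakin (PPL), which links desmosomes to keratin, P-cadherin (CDH3), and the polarity genes LLGL2 and CRB3. PPL gave 40.9 (DMSO), 384 (PHA665752), 15.0 (sc siRNA) and 43.3 (MET siRNA), with log2 ratios of 3.45 and 1.48 for the treatments and -1.19 for the controls.

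CDH3 gave 167, 1107, 134 and 259 on the arrays in the same order, with log2 ratios of 2.95 and 0.90. LLGL2 had 1.66 and 0.96, and CRB3 1.49 and 0.68. PPL, CDH3, LLGL2 and CRB3 were thus higher with both treatments than with their controls, while for CDH1 the inhibitor ratio was 0.08 (log2) and no knockdown ratio could be given.

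The simple-epithelial keratins KRT7, KRT8, KRT18 and KRT19 had log2 ratios between -0.55 and 0.34 with PHA665752, with 0 of 4 past 2-fold in any pair, and KRT20 was not well above background. Among other epithelial membrane and secretory genes 3 of 12 were higher and 1 lower past 2-fold with PHA665752, and 2 of 9 were higher with MET siRNA. LAD1, an anchoring filament protein, had log2 ratios of 1.99 and 1.24 and MUC1, a membrane mucin, 1.70 and 0.78. The others, which fall outside the naming rule and were picked after their values were seen, were MYO5C (1.34 with PHA665752), PRSS8 (at least 3.7-fold lower with PHA665752) and SPINT1 (at least 10.1-fold higher with MET siRNA, on the strength of 1 spot). PRSS8 was well above background with DMSO alone (signal 52.9), and was also at least 4.34-fold lower with sc siRNA than with DMSO. Its call was lost with normexp and where both arrays had to be well above background. Of 16 epithelial transcription factors with a probe, 9 were not well above background on any array, GRHL2, OVOL1, OVOL2, ELF3 and EHF among them. GATA4 was the 1 of 5 past 2-fold with PHA665752 (1.23, and 0.12 with MET siRNA). This call was lost with the 50th percentile, quantile normalization and normexp.

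Among other transcription factors of the transition, 1 of 12 was higher and 1 lower past 2-fold with PHA665752. SOX4 had log2 ratios of 2.25 and 0.44 and FOSL1, a subunit of AP-1, -3.36 and -0.79. Mesenchymal adhesion and matrix genes went both ways, with 6 of 17 higher and 4 lower past 2-fold with PHA665752 and a median of 0.41. Of all genes, 13.1% were higher and 8.04% lower. Fibronectin (FN1) had 1.96 and 0.48, fibrillin (FBN1) 1.92 and 0.40, decorin (DCN) 1.69 and 0.79 and SPARC 1.33 and 0.12. Over the alternatives the list median ranged from 0.03 to 0.41, and the counts from 4 to 6 higher and from 2 to 4 lower. On the lower side were NT5E, an ectonucleotidase, with -1.66 and -0.49, versican (VCAN) with -1.21 and -0.13, tenascin C (TNC) with -1.03 and -0.28, and the collagen crosslinker LOX with -1.02 and -0.40.

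Of 10 mesenchymal cytoskeleton and receptor genes, 2 were higher past 2-fold with PHA665752. PDGFRB, a growth factor receptor, had log2 ratios of 2.11 and 1.04 and TAGLN, an actin-binding protein, 1.03 and -0.07. The count was 1 with the 50th percentile, quantile normalization, normexp and scaling to the detected probes. The 7 fibroblast markers had a summed signal of 2108 (DMSO), 11221 (PHA665752), 1893 (sc siRNA) and 3928 (MET siRNA), of which COL1A1 alone gave 771, 6631, 696 and 2098. The 6 epithelial markers together gave unscaled signals of 48094, 34974, 38615 and 36923, a sum carried by KRT18 (33631 with DMSO, log2 ratio -0.55 with PHA665752). The log2 ratios of the other 5 with PHA665752 lay between 0.03 and 0.54. The 4 endothelial markers gave 1969, 556, 1143 and 940.1, a sum carried by PECAM1 (-2.39 with PHA665752 and -0.44 with MET siRNA), while VWF went the other way (2.77 and 1.13). The part of these shifts in the members' ratios was not tested.

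With MET siRNA the lists moved less. Past 2-fold higher was 1 of 19 junction genes (PPL, not past it with normexp), and the list median was 0.13 against -0.02 for all genes. Past 2-fold lower was 1 of 18 mesenchymal adhesion and matrix genes (MMP2, at least 2.17-fold, named after its value was seen), and the list median was -0.18. MMP2 was well above background with sc siRNA alone, on 1 spot with a signal of 36.5, where it was also at least 4.01-fold higher than with DMSO, and it was not past 2-fold with normexp or given a ratio where both arrays had to be well above background. The junction median was -0.17 with scaling to the detected probes, a scaling that lowered all genes of this pair by 0.30.

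The splicing regulators other than ESRP1 and ESRP2 were well above background on every array for 11 of 11 genes. With PHA665752, 2 were past 2-fold higher, RBM47 (2.19, 0.68 with MET siRNA and 1.20 between the controls) and MBNL2 (1.56 and 0.60), while the list median was -0.27. Among 12 corepressors and stability regulators of the Snail, TWIST and ZEB factors, the deubiquitinase USP9X was higher (1.31) and the methyltransferase EZH2 lower (-1.20) past 2-fold with PHA665752, and with MET siRNA they had -0.13 and 0.23.

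**Figure D4:**
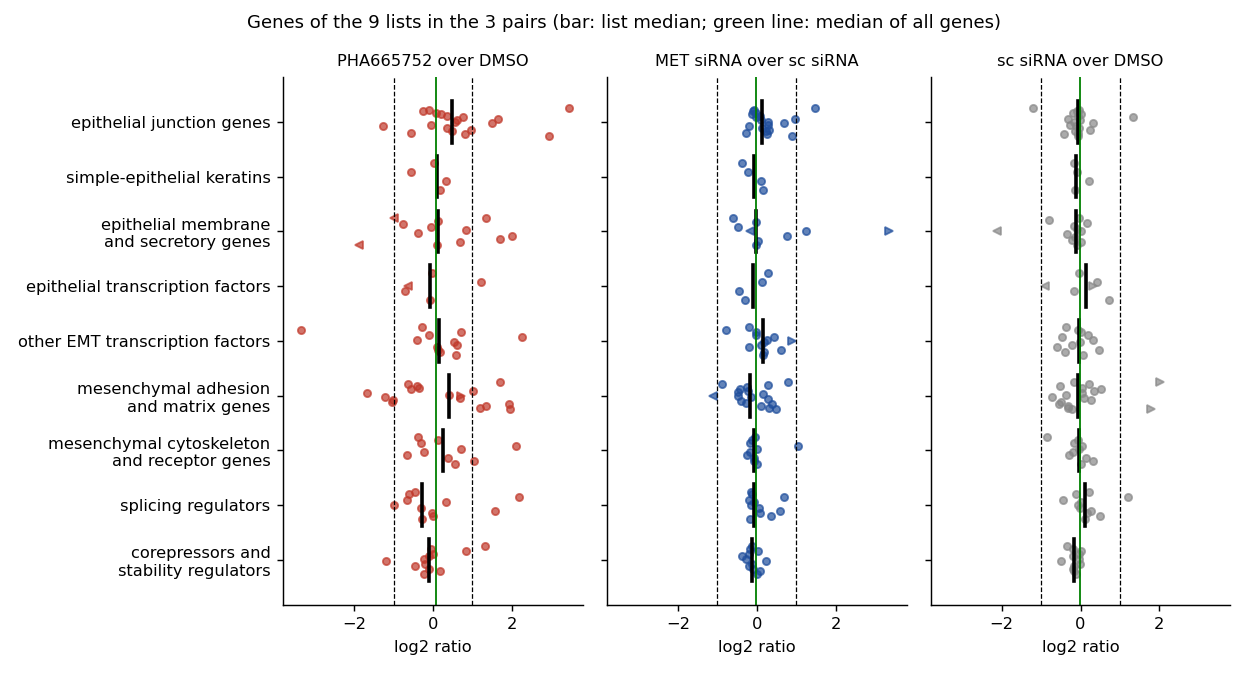
Log2 ratio of each gene of the 9 lists in the 3 pairs, 1 point per gene on its brightest probe, with triangles for bounds, a black bar for the list median, a green line for the median of all genes and dashed lines at 2-fold. Junction genes and mesenchymal matrix genes both reach far right with PHA665752 (medians 0.48 and 0.41), and the spread is narrower with MET siRNA.

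ZEB1, SNAI1 and SNAI2 are known to bind the letters CAGGTG or, on the other strand, CACCTG. In the 250 bases before the annotated start, RefSeq's promoter table for GRCh38.p14 held these letters in 17.5% of 35116 windows, some genes having several. Of the members it gave windows for CDH2, VIM and ZEB1, with a match in ZEB1 only. Windows for CDH1, EPCAM, ESRP1, ESRP2, SNAI1, SNAI2 and TWIST1 were not used here. By gene, with any window counted, 20.6% of 27305 genes had a match, as had 23 of 38 genes of the epithelial lists and 3 of 33 of the mesenchymal lists.

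Of 8 epithelial-list genes past 2-fold higher with PHA665752, 4 had a window and each held a match. Shown are the most upstream ZEB1 window, since both ZEB1 probes were lower with both treatments, and those of CRB3 and LAD1 as examples of epithelial genes higher with both, like MUC1, whose windows held 2 matches each and are not printed. These examples were picked with the matches known. Capitals mark CAGGTG or CACCTG, and all run 5′ to 3′ on the gene's strand. The ZEB1 window is chr10:31318167-31318416 (plus strand), that of CRB3 is chr19:6464021-6464270 (plus strand) and that of LAD1 is chr1:201399325-201399574 (minus strand).
ZEB1: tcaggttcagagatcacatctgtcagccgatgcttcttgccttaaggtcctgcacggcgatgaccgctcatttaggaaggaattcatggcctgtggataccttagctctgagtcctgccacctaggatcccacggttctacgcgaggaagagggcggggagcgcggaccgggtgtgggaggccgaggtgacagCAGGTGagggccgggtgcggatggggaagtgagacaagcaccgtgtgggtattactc
CRB3: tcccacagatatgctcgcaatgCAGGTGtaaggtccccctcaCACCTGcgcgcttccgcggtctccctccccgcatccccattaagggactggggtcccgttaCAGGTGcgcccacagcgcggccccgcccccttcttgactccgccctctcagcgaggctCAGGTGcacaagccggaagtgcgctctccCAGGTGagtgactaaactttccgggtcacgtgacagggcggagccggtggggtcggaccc
LAD1: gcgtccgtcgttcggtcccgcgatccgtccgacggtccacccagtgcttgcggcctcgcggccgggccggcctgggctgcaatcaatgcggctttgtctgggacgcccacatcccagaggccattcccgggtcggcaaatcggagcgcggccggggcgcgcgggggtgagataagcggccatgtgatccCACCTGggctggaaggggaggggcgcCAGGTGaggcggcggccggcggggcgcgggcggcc
The windows held 1, 5 and 2 matches. A match is a description of the letters, and binding was not measured on these arrays.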

How the data were processed

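The authors deposited the Feature Extraction output of each array (version 11.5.1.1 per the file headers), whose processed signal is a linear intensity after background subtraction, not normalized between arrays, and a series matrix of the same intensity values. Groups came from the treatment in the labels. Control spots and spots carrying an outlier mark of the scanner software, for the feature or its background, were dropped, and spots of a probe were averaged as log2 intensity from the deposited values, minus the 75th percentile of the array (signals of 990.1, 853, 831 and 858 with DMSO, PHA665752, sc siRNA and MET siRNA). A probe counted as well above background if the mark was on 50% or more of its usable spots, with the lowest such signal at 10.8, 12.3, 10.2 and 17.4. A probe well above background on 1 array of a pair gave a bound against this lowest signal of the other array, and on neither array no ratio. No bound was given where the scaled signal did not exceed that lowest signal, as for CDH1 in the siRNA pair. For arrays without replicates the pairs were described by ratios alone, with no test and no interval.

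Names came from RefSeq accessions through a GRCh38.p14 table, giving 25771 probes a symbol. The brightest probe with a value on each array stood for its gene (18755 genes). Spot noise came from probes spotted 10 times with at least 5 usable spots (997 to 999 per array), in 5 signal bins. The members and lists were chosen with earlier results of these data known. Named in the text were all members, MET, the markers, for each list up to 4 genes per direction past 2-fold in either treated pair and well above background on every array, and the 3 genes nearest in pattern to a member past 2-fold. Some genes that this rule names are not reported here. Python 3.11.15, numpy 2.4.6, pandas 2.3.3, matplotlib 3.10.9, R 4.3.3 and limma 3.58.1 were used. The ratio rules were run on simulated data, with changes well past 2-fold put into bright probes only and the same small noise on every probe. There 200 of 200 changed probes among 33770 were recovered and 0 others passed. These settings fixed the outcome, so it checks the code only. It gives no error rate for dim probes or for differences between cultures. Alternatives were the 50th percentile, quantile normalization, normexp on median signals (offset 50), no filter on dim probes, only ratios with both arrays well above background, background outlier marks ignored, the series matrix values and the median over a gene's probes. Scaling to the median of the probes well above background was added after seeing the data.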

Additional observations from a re-analysis of the deposited data

Results flagged for a closer look

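SNAI2 was set apart because the MET inhibitor and the MET knockdown lay on opposite sides of their controls, at 0.39 for PHA665752 over DMSO and -0.31 for MET siRNA over sc siRNA (log2), each larger than the noise between spots. Each is 1 pair of arrays, and the difference between them was not tested. The treatments also differ in kind, transfection against a compound, which cannot be told apart from their effect on MET here.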

How the results depend on the processing

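No paired analysis was possible because each condition has 1 array. Of 234 member ratios recomputed under 9 alternatives, 184 moved by less than the spot noise and 50 moved by more. Of the ratios past 2-fold, 0 changed sign. Smaller ratios of CDH1, CDH2, EPCAM, ESRP1, ESRP2 and ZEB1 did so in at least 1 alternative. The ESRP2 ratio with PHA665752, for example, had the other sign in 3, down to -0.24. Part of this outcome was fixed in advance, since all 234 member ratios were of pairs with both arrays well above background. Dropping the filter on dim probes, or requiring both arrays, could therefore not change them. Nor could the median over probes for a gene with a single readable probe. The 2 members past 2-fold with PHA665752 became 1 with normexp correction. The 2 members past 2-fold between the controls became 1 with normexp correction and 1 with the series matrix values, and the count of 0 with MET siRNA held in every alternative run. Members well above background on every array numbered 8, and 9 with background marks ignored or with the mark for a positive and significant signal.

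Over all genes, 3027, 373 and 578 were past 2-fold with PHA665752, MET siRNA and between the controls, against 1803, 76 and 236 with normexp. Without the filter the latter pairs gave 1020 and 1234, and with both arrays required 198 and 381. With the 50th percentile all PHA665752 ratios fell by 0.25 and the higher share of calls went from 62.0% to 42.5%; with scaling to detected probes all MET siRNA ratios fell by 0.30 and that share from 74.5% to 40.2%. Dim probes, CDH1, ESRP1, ESRP2 and TWIST1 among the members, are limited by signal over background. The offset of 50 added in normexp by itself shrinks the ratios of such probes, so calls lost with it are partly a result of that setting.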
